A study of Homo sapiens with 4 samples.

Results

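FEN1, the flap endonuclease supplied on a plasmid, and EGFP, the enhanced green fluorescent protein, were followed in HEK293A, an established line of human embryonic kidney epithelial cells. They are 2 of the 58736 features listed for each library. EGFP is the only row that is not an Ensembl gene, and FEN1 is the row with the identifier ENSG00000168496. RNA sequencing covered 2 libraries of cells given the DNA probe NT1_hp2 (replicates 2 and 3) and 2 libraries labelled negative control, called NC below (replicates 1 and 3). By the protocols, cells of both groups were plated at 300000 per well and received 1 µg of FEN1 plasmid, then 500 pmol of DNA probes 48 h later, and RNA was taken after 72 h. The sources used here do not give the probe used in NC, the target of NT1_hp2, the species and promoter of the FEN1 insert or the source of EGFP. Replicates are not stated to be separate cultures, so p-values reflect only how these libraries vary, which may be technical variation.

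FEN1 is a structure-specific nuclease that cuts at the base of single-stranded flaps. It trims the flap displaced when Okazaki fragments are joined on the lagging strand, acts in long-patch base excision repair, and is held at the DNA by the sliding clamp PCNA. A DNA probe that forms a hairpin on a nucleic acid strand can present FEN1 with a flap-like structure, which is the principle named in the title of the study. EGFP is an engineered form of a jellyfish protein with no human counterpart, so its RNA in human cells comes from an introduced gene.

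FEN1 lies on chromosome 11, 61792637 to 61797244 (plus strand, GRCh38, GENCODE 29). Its main transcript has 2 exons, and the whole coding region of 1140 bases before the stop codon, 61795362 to 61796501, sits in 1 of them. Transcripts of a plasmid with the human coding sequence would therefore show no splice junction inside it that differs from those of the chromosomal gene, and a value per gene cannot separate these sources. An annotated copy is the processed pseudogene FEN1P1 on chromosome 1, which matched the FEN1 coding sequence at 1081 of 1132 aligned bases (95.5%). Other copies were not searched for. The first 120 coding bases of FEN1 (chr11:61795362-61795481, plus strand) and the aligned bases of FEN1P1 (chr1:91328381-91328500, plus strand), from the GENCODE 29 transcripts on GRCh38, are shown because few bases separate the gene from its copy. Capitals mark the 3 bases that differ.
FEN1: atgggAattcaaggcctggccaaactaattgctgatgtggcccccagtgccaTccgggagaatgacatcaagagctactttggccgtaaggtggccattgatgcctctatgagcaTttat
FEN1P1: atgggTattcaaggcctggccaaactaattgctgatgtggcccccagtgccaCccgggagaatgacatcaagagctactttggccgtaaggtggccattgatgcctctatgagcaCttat
FEN1P1 had 0 and 6 reads in NT1_hp2 replicates 2 and 3, against 1 and 2 reads in NC replicates 1 and 3, while FEN1 had 1795 and 1810 reads in NT1_hp2 and 2628 and 2008 in NC. The sources used here do not give how reads that match both were assigned.

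EGFP RNA and FEN1 RNA were both abundant, EGFP far more so, and the means in NT1_hp2 were 23.3% (EGFP) and 25.6% (FEN1) below those in NC. EGFP measured 4578 and 4437 FPKM in NT1_hp2 replicates 2 and 3, against 6143 and 5616 FPKM in NC replicates 1 and 3. FPKM are read counts scaled to gene length and library size, here as the authors scaled them. FEN1 measured 51.3 and 51.4 FPKM in NT1_hp2, against 73.7 and 64.5 FPKM in NC. For each of these RNAs both NT1_hp2 libraries lay below both NC libraries, and NC replicate 1 was the highest of the 4. The 2 NT1_hp2 libraries lay closer together than the 2 NC libraries.

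**Figure D1:**
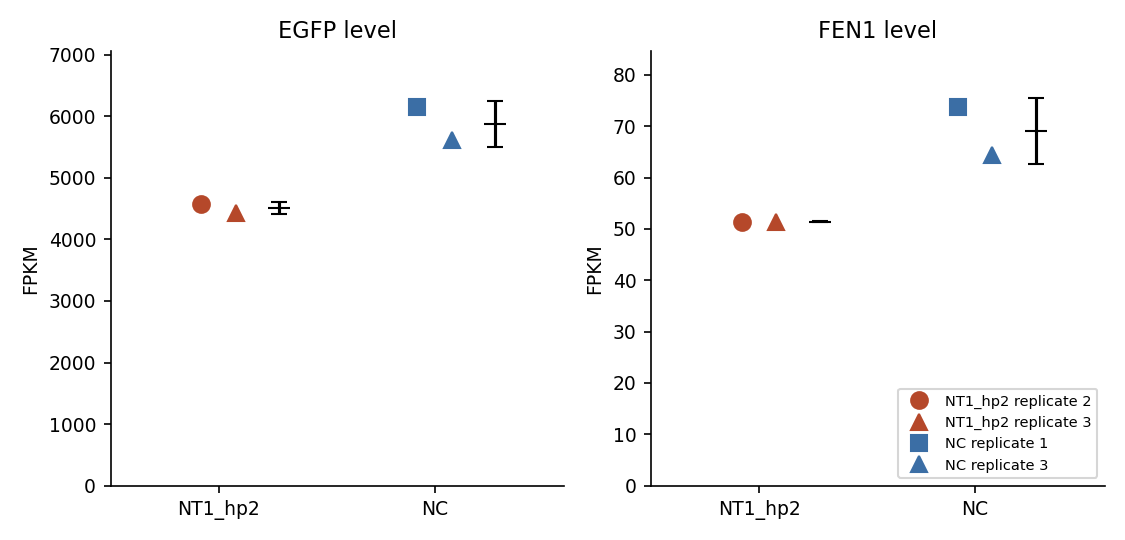
FPKM of EGFP (left) and FEN1 (right) in each library, with NT1_hp2 left of NC, and the mean with an error bar of 1 SD (n = 2) beside each group. EGFP averaged 4507 FPKM in NT1_hp2 and 5879 FPKM in NC, FEN1 averaged 51.4 and 69.1 FPKM, and neither RNA has overlapping groups.

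FEN1 fell in cells given NT1_hp2, to 51.4 ± 0.111 FPKM, against 69.1 ± 6.48 FPKM in NC (SD, n = 2 each), a ratio of means of 0.744. This was −0.42 as a difference of log2(FPKM + 1) (SE 0.086, 95% interval −0.64 to −0.19), and it passed the test across all features at an adjusted p of 0.0441 (limma-trend, Benjamini-Hochberg, threshold 0.05). EGFP averaged 4507 ± 99.6 FPKM in NT1_hp2 and 5879 ± 373 FPKM in NC (SD, n = 2 each), a ratio of means of 0.767. Its difference of −0.38 (SE 0.092, 95% interval −0.62 to −0.15) did not pass, with a limma-trend adjusted p of 0.0559. The intervals of EGFP and FEN1 cover much the same range, so a pass for FEN1 and not for EGFP does not show that they differ.

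Of 16362 features tested, 1460 were lower in NT1_hp2 (8.92%) and 818 were higher (5%), so that 13.9% were called in either direction. Both NT1_hp2 libraries lay below both NC libraries in 34.8% of the tested features and above both in 32%. The middle of the distribution ran from −0.24 at the lower quartile to 0.20 at the upper quartile, around a median of −0.0075 on the log2(FPKM + 1) scale. FEN1 stood in the lower tail, with 1963 of these features at or below its difference, and EGFP with 2303. FEN1 and EGFP were thus in the outer part of a broad distribution and not at its edge. Any plasmid RNA in the FEN1 value cannot be separated from that of the chromosomal gene.

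**Figure D2:**
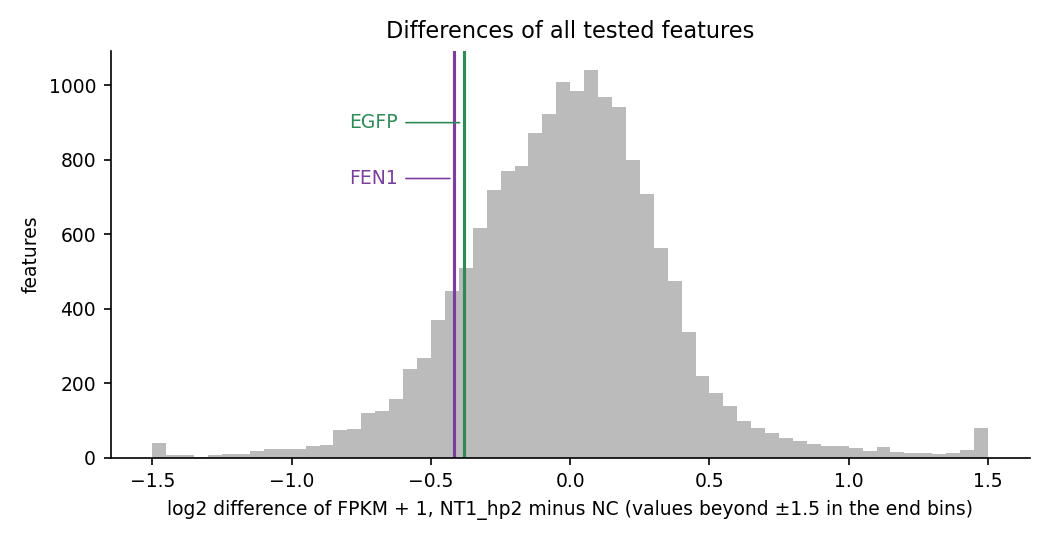
Number of tested features by log2 difference (NT1_hp2 minus NC, log2(FPKM + 1) scale), with EGFP and FEN1 as vertical lines. FEN1 at −0.42 and EGFP at −0.38 lie next to each other below the lower quartile of −0.24.

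The size of both differences depended on the scaling. When each library was scaled to its summed FPKM, the median of all features moved to 0.16. EGFP was then at −0.17 (limma-trend adjusted p = 0.0308) and FEN1 at −0.21 (limma-trend adjusted p = 0.0477), or −0.33 and −0.37 relative to that median. Summed FPKM were 255854 and 253690 in NT1_hp2, against 304324 and 284677 in NC. Mitochondrially encoded RNAs, which held 15.4% and 15.3% of the summed FPKM in NT1_hp2 and 19.9% in each NC library, thus also held a lower share in NT1_hp2, and their part in the result was not tested. EGFP made up 17891 and 17489 of 1000000 summed FPKM in NT1_hp2, against 20187 and 19726 in NC, a ratio of means of 0.886. FEN1 made up 200.5 and 202.8 of 1000000 in NT1_hp2, against 242 and 226.6 in NC, a ratio of means of 0.861. On this scale too, both NT1_hp2 libraries lay below both NC libraries for each RNA. The share of all features that did so on this scale was not counted.

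Whole reads recovered from the FPKM values came to 13694161 and 13647890 per library in NT1_hp2, and to 14972373 and 12557001 in NC. With EGFP taken as 720 bases, it had 46547 and 45353 of these reads in NT1_hp2, against 63686 and 50798 in NC. That was 0.340% and 0.332% of all reads in NT1_hp2, against 0.425% and 0.405% in NC. The 95% Wilson interval was 0.337 to 0.343% for NT1_hp2 replicate 2 and 0.401 to 0.408% for NC replicate 3. As shares of reads, the ratio of means was 0.810 for EGFP and 0.786 for FEN1, nearer to 1 than 0.767 and 0.744 by FPKM. For FEN1, NC replicate 1 over NC replicate 3 gave a ratio of 1.14 (95% exact binomial interval 1.08 to 1.21), so the NC libraries differed by more than counting error, whereas NT1_hp2 replicate 2 over replicate 3 gave 0.997 (0.933 to 1.06). For EGFP these ratios were 1.03 (1.02 to 1.05) within NT1_hp2 and 1.09 (1.08 to 1.11) within NC. A length of 1440 bases also gave whole reads for EGFP. It would double the EGFP reads, to 93094 and 90706 in NT1_hp2 and 127372 and 101596 in NC, bring their shares to 0.678% and 0.662% in NT1_hp2, against 0.847% and 0.806% in NC, and narrow the EGFP intervals. These intervals cover counting error only. In bulk libraries a smaller share of transfected cells and less RNA per cell cannot be told apart.

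By level, EGFP was the fifth feature in each of the 4 libraries, and the first once the mitochondrial features were left out. The 4 features above it by mean FPKM were the mitochondrial ribosomal RNAs MT-RNR1 and MT-RNR2 and the mRNAs MT-CO1 and MT-CO3, which encode cytochrome c oxidase subunits. MT-CO3 measured 4625 and 4486 FPKM in NT1_hp2, against 7491 and 6895 FPKM in NC, so it stood just above EGFP in NT1_hp2 and clearly above it in NC. MT-CO1 fell (−0.64, limma-trend adjusted p = 0.0340), as did MT-CO3 (−0.66, adjusted p = 0.0340, limma-trend) and MT-RNR2 (−0.52, adjusted p = 0.0353, limma-trend), while MT-RNR1 was at −0.17 without passing. Below EGFP came MT-ATP6 (−0.39, not passing), MT-CO2 and MT-ND4, which encode subunits of ATP synthase, cytochrome c oxidase and complex I. MT-CO2 fell by 0.85 and MT-ND4 fell by 0.41 on the log2(FPKM + 1) scale. EGFP, at −0.38 (SE 0.092), thus had a smaller difference than 6 of these 7 neighbours in level, all of them mitochondrial. It was not separated from MT-ATP6 (SE 0.10) or MT-ND4 (SE 0.086). This is a description over features named by rank.

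Among nuclear genes the closest in level was EEF1A1, which encodes a translation elongation factor, at 1925 and 1811 FPKM in NT1_hp2 and 2209 and 2008 FPKM in NC. EGFP averaged 2.61 times EEF1A1 and 3.48 times the glycolytic enzyme gene GAPDH over the 4 libraries. Between EEF1A1 and GAPDH by mean lay the ribosomal protein genes RPL7A (−0.54, SE 0.097, limma-trend adjusted p = 0.0381) and RPS2 (−0.58, SE 0.12, limma-trend adjusted p = 0.0430). Both differences were larger in size than that of EGFP (−0.38, SE 0.092). EEF1A1 (−0.17), GAPDH (−0.016) and EEF2 (−0.26), the next below GAPDH, had smaller differences and did not pass. FEN1 ranked 541 and 538 among all features in NT1_hp2, against 415 and 434 in NC. It stood above 97.6% of nuclear protein-coding genes in both NT1_hp2 libraries and above 98.2% and 98.1% in the NC libraries. A rank cannot show a change of EGFP, which stood far above the next nuclear gene, so these ranks do not compare the 2 RNAs.

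The ratio of EGFP to FEN1 overlapped between the groups. Per kilobase, EGFP was 89.2 and 86.2 times FEN1 in NT1_hp2, against 83.4 and 87.1 times in NC. NC replicate 3 lay above NT1_hp2 replicate 3, and NC replicate 1 was the lowest of the 4. The mean ratio was 87.7 ± 2.13 in NT1_hp2 and 85.2 ± 2.59 in NC (SD, n = 2 each). As log2 of FEN1 over EGFP the difference was −0.042 (two-sided exact permutation p = 0.667, n = 2 each), where the smallest p that 2 against 2 libraries can give is 0.333. This test could not have passed a threshold of 0.05 at any size of difference. The ratio is free of library scaling, because both RNAs come from the same library, but not of length effects. The FEN1 values are per kilobase of all 2478 exon bases, of which 46.1% are coding. FEN1 RNA holding only the coding bases would therefore be understated. With a smooth trend on gene length removed from each library, and EGFP taken as 720 bases, the difference was 0.098 in the other direction (exact permutation p = 0.333), with FEN1 at −0.28 and EGFP at −0.38.

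**Figure D3:**
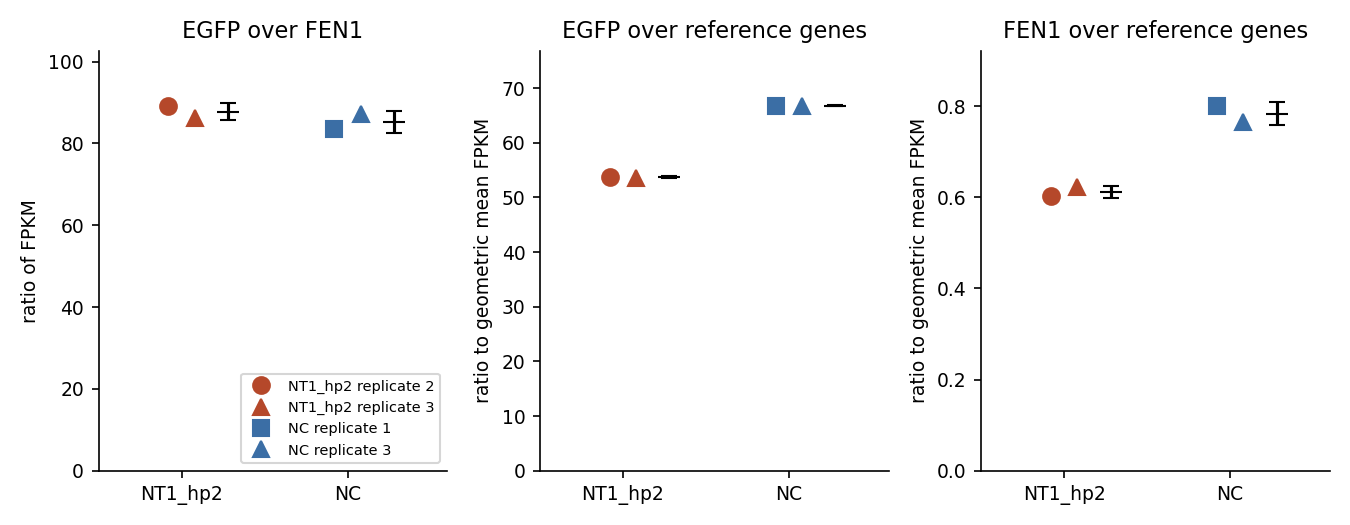
FPKM of EGFP over FEN1 (left), EGFP over the geometric mean of 15 reference genes (middle) and FEN1 over that mean (right) in each library, with NT1_hp2 left of NC, and the mean with an error bar of 1 SD (n = 2). EGFP over FEN1 overlaps between groups at 83.4 to 89.2, whereas both RNAs are lower relative to the reference genes in both NT1_hp2 libraries.

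Against genes in common use as references for transcript level, both RNAs stayed lower in NT1_hp2. The share of all features lower against these genes was not counted. EGFP was 53.8 and 53.6 times the geometric mean of 15 reference genes in NT1_hp2, against 66.8 and 66.7 times in NC. Within each group the 2 libraries agreed closely on this ratio, with the higher at 1.002 times the lower in NC, where plain FPKM of EGFP gave 1.09. FEN1 was 0.603 and 0.622 times the reference mean in NT1_hp2, against 0.801 and 0.766 times in NC. For FEN1 the higher library was 1.03 times the lower in NT1_hp2, where plain FPKM gave 1.003. In NC it was 1.05 times the lower, where plain FPKM of FEN1 gave 1.14. The log2 differences were −0.31 for EGFP and −0.36 for FEN1, each with an exact permutation p of 0.333 (two-sided, n = 2 each), which is the smallest possible.

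Of the 15 reference genes, 0 rose and 2 fell in limma-trend, against 5% and 8.92% of all tested features, with a median of −0.013 against −0.0075 over all tested features. With libraries scaled to summed FPKM, 7 of the 15 were higher and 2 lower, against 20.2% and 5.59% of all features in that fit, and GAPDH was then among the higher ones (0.19). ACTB, which encodes beta-actin, measured 269 and 278 FPKM in NT1_hp2, against 377 and 357 FPKM in NC (−0.42, limma-trend adjusted p = 0.0393). SDHA, a subunit of succinate dehydrogenase, fell by 0.41 (limma-trend adjusted p = 0.0353). GAPDH measured 1504 and 1463 FPKM in NT1_hp2, against 1574 and 1429 FPKM in NC, with overlapping groups and a difference of −0.016. Whether the groups overlapped therefore depended on the reference gene. EGFP over ACTB was 17.0 and 16.0 in NT1_hp2, against 16.3 and 15.7 in NC, which overlap. EGFP over GAPDH was 3.04 and 3.03 in NT1_hp2, against 3.90 and 3.93 in NC, which do not overlap. FEN1 over ACTB was 0.191 and 0.185 in NT1_hp2, against 0.195 and 0.181 in NC, which again overlap. FEN1 over GAPDH was 0.0341 and 0.0352 in NT1_hp2, against 0.0468 and 0.0451 in NC, which do not overlap (log2 difference −0.41).

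Among 33 genes of lagging-strand synthesis, flap processing, the FEN1 nuclease family and base excision repair, FEN1 was expressed near the top. PCNA, the clamp that FEN1 binds, was higher than FEN1 in all 4 libraries, at 180.7 and 184 FPKM in NT1_hp2 and 238 and 211 FPKM in NC. In NC no other member was above FEN1. In NT1_hp2, POLA1, the catalytic subunit of DNA polymerase alpha, stood above it at 58.0 and 56.0 FPKM, against 46.9 and 50.5 FPKM in NC, where it stood below. PARP1, which binds DNA strand breaks, was at 51.7 and 50.1 FPKM in NT1_hp2 and so was not separated from FEN1 there, while in NC it was at 65.5 and 59.8 FPKM. The order below PCNA thus depended on the group.

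**Figure D4:**
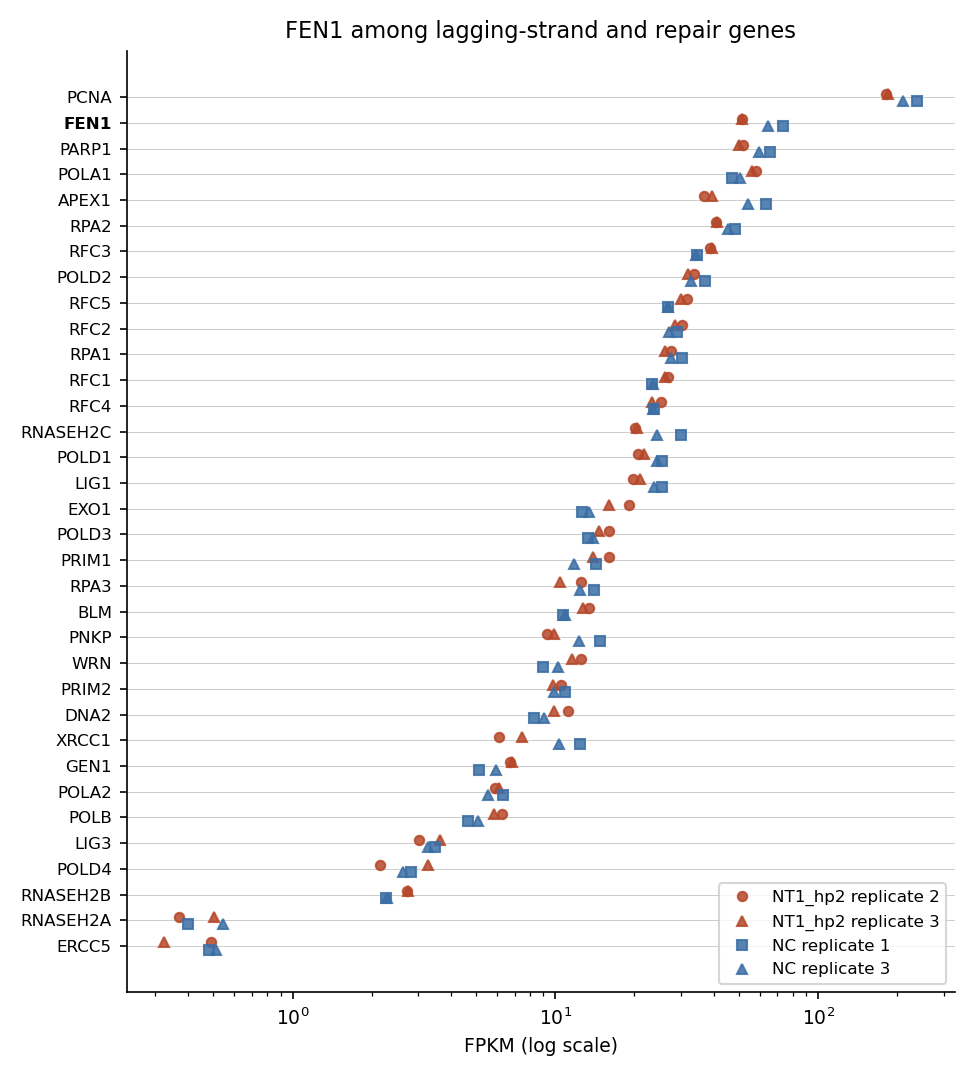
FPKM on a log scale of FEN1 (bold) and 33 genes of lagging-strand synthesis, flap processing, the FEN1 nuclease family and base excision repair. Rows are sorted by mean, with NT1_hp2 drawn above NC in each row. PCNA lies above FEN1 in every library, and POLA1 is above FEN1 in NT1_hp2 only.

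Of those 33 genes 31 were expressed enough to test, and 0 rose and 2 fell, against 5% and 8.92% of all tested features. Their median difference was 0.016 on the log2(FPKM + 1) scale, against −0.0075 over all tested features. APEX1, the endonuclease that cuts at abasic sites, measured 36.9 and 39.6 FPKM in NT1_hp2, against 63.3 and 54.2 FPKM in NC (−0.60, limma-trend adjusted p = 0.0353). XRCC1, the scaffold of single-strand break repair, measured 6.10 and 7.47 FPKM in NT1_hp2, against 12.4 and 10.3 FPKM in NC (−0.67, limma-trend adjusted p = 0.0420), and 24.0% of its exon bases are also exons of other annotated genes. These counts followed the setting. With libraries scaled to summed FPKM, 13 of the 31 were higher and 2 lower, against 20.2% and 5.59% of all features in that fit. In limma-voom 7 were higher and 8 lower, against 14.4% and 19.9% of all features.

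PCNA was at −0.29 and LIG1, the ligase that seals the nick FEN1 leaves, at −0.26, and neither passed. LIG1 measured 19.8 and 21.0 FPKM in NT1_hp2, against 25.6 and 23.7 FPKM in NC. FEN1 was 0.284 and 0.279 times PCNA in NT1_hp2, against 0.309 and 0.306 times in NC. It was 2.59 and 2.45 times LIG1 in NT1_hp2, against 2.88 and 2.72 times in NC. Both ratios were lower in both NT1_hp2 libraries, by log2 differences of −0.13 for PCNA and −0.15 for LIG1, and with 2 libraries a group the exact permutation p was 0.333 for each, the smallest possible. In NT1_hp2, FEN1 was thus at 0.915 of its NC proportion to PCNA and at 0.900 of that to LIG1.

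The other nucleases of the FEN1 family were expressed at lower levels. EXO1, an exonuclease of mismatch repair and end resection, measured 19.1 and 16.0 FPKM in NT1_hp2, against 12.6 and 13.4 FPKM in NC (0.40, not passing, limma-trend adjusted p = 0.0598). GEN1, a Holliday junction resolvase, measured 6.71 and 6.82 FPKM in NT1_hp2, against 5.14 and 5.96 FPKM in NC (0.25, not passing). For both, the NT1_hp2 libraries lay above the NC libraries, as in 32% of all tested features. FEN1 was 2.69 and 3.22 times EXO1 in NT1_hp2, against 5.84 and 4.81 times in NC, a log2 difference in ratio of −0.85 (exact permutation p = 0.333, n = 2 each). ERCC5, the nuclease of nucleotide excision repair, had overlapping groups at 0.490 and 0.325 FPKM in NT1_hp2, against 0.480 and 0.512 FPKM in NC, but 63.2% of its exon bases are shared with BIVM and BIVM-ERCC5, so its level is uncertain.

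Exons of FEN1 overlap those of chromosomal neighbours, whose reads could enter its count. The kit does not mark strand, and 166 of the 2478 exon bases of FEN1 are also exons of TMEM258 on the other strand, while 49 are exons of FADS2 on the same strand. Together these make 8.68% of the FEN1 exon bases, and 0 coding bases are shared. TMEM258, which encodes a subunit of the oligosaccharyltransferase complex, measured 25.4 and 25.0 FPKM in NT1_hp2, against 31.5 and 26.5 FPKM in NC (−0.19, not passing). FADS2, a fatty acid desaturase, fell to 21.7 and 22.9 FPKM in NT1_hp2, against 29.6 and 28.4 FPKM in NC (−0.36, limma-trend adjusted p = 0.0382). Per length, FEN1 was at least 2.02 times TMEM258 and at least 2.25 times FADS2 in each library.

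Of 9 annotated neighbours, 7 were tested, 0 rose and 1 (FADS2) fell, against 5% and 8.92% of all tested features, with a median of −0.064. With libraries scaled to summed FPKM, FADS2 was not called and FADS1 was called higher (0.25, limma-trend adjusted p = 0.0310). FADS1, the desaturase gene next to FADS2, measured 39.5 and 37.6 FPKM in NT1_hp2, against 38.7 and 36.1 FPKM in NC, and its groups overlapped. The microRNA genes MIR611 and MIR1908 were listed at 0 in all 4 libraries. FEN1 over FADS2 was 2.36 and 2.25 in NT1_hp2, against 2.49 and 2.27 in NC, which overlap, while FEN1 over FADS1 was 1.297 and 1.37 in NT1_hp2, against 1.90 and 1.79 in NC.

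Across the 4 libraries, other genes had profiles closer to EGFP or FEN1 than these had to each other. Likeness was the Euclidean distance between log2(FPKM + 1) values centred on each gene's own mean, over 8478 features with a mean of at least 5 FPKM. EGFP and FEN1 were 0.065 apart, with 112 features nearer to EGFP and 116 nearer to FEN1. Nearest to EGFP were NCL (0.011), PTMA (0.014), SURF1 (0.017) and TMEM8A (0.018). NCL, which encodes the nucleolar protein nucleolin, measured 65.3 and 62.9 FPKM in NT1_hp2, against 87.3 and 79.5 FPKM in NC. Nearest to FEN1 were the ribosomal protein gene RPL19 (0.0079), YBX1 (0.013), PSMD4 (0.021) and the keratin gene KRT18 (0.021). RPL19 measured 465 and 464 FPKM in NT1_hp2, against 661 and 582 FPKM in NC. With 4 libraries such likeness is a description only.

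Of the markers chosen for the label of a kidney epithelial line only part was expressed, which does not establish kidney identity. Of 10 markers of kidney epithelium and HEK293 cells, 5 were at 1 FPKM or more in all libraries (KRT8, KRT18, KRT19, VIM and the neurofilament gene NEFL), whereas PAX2, PAX8, EPCAM, CDH1 and the neurofilament gene NEFM stayed below 1 FPKM. Of 6 markers of other cell types only COL1A1 was above 1 FPKM, at 7.85 to 8.44 FPKM, and PTPRC was listed at 0. The summed level of the first list was 319 and 312 FPKM in NT1_hp2, against 374 and 346 FPKM in NC. KRT8 was at 84.2 and 86.6 FPKM in NT1_hp2, against 111.9 and 99.0 FPKM in NC, whereas VIM lay the other way, at 109.9 and 103.3 FPKM in NT1_hp2, against 100.4 and 98.3 FPKM in NC. The part of these markers in the EGFP and FEN1 differences was not tested.

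**Figure D5:**
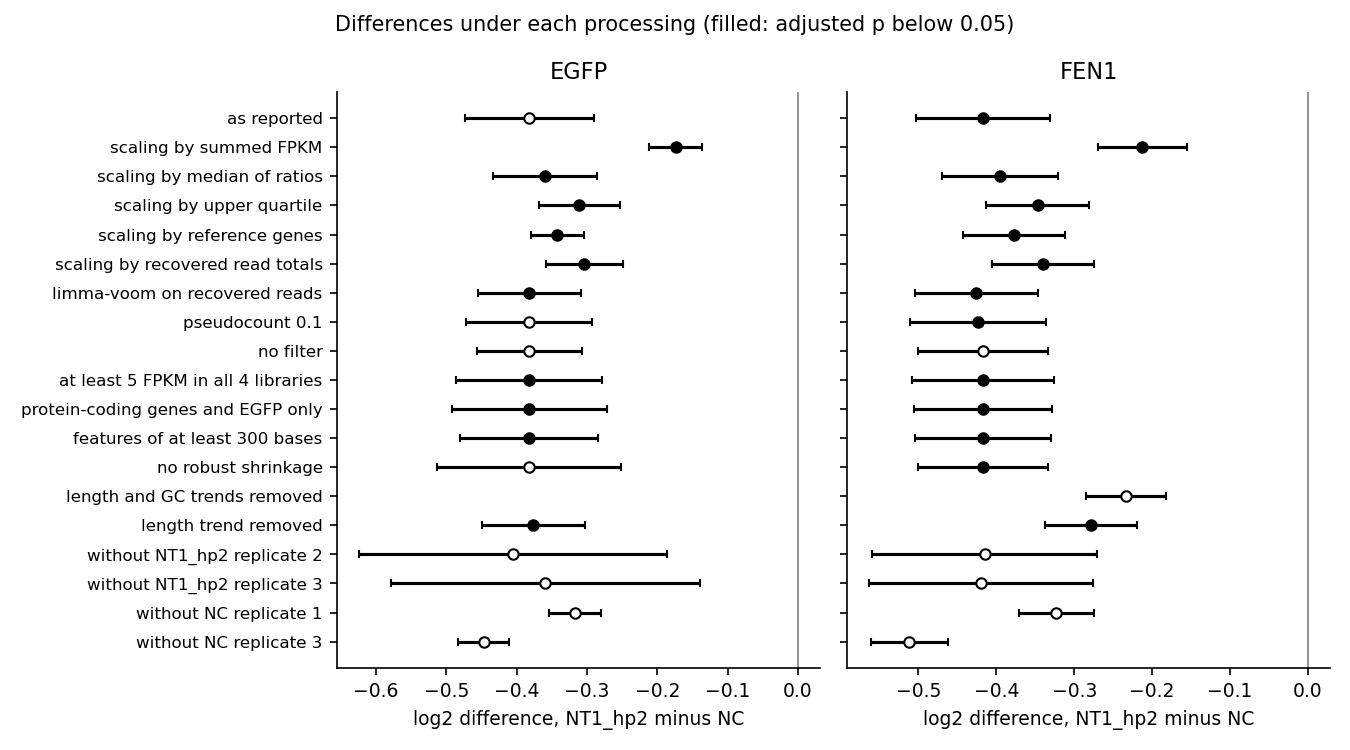
Log2 difference (NT1_hp2 minus NC) of EGFP (left) and FEN1 (right) under each way of processing, with bars of 1 SE and filled points where the adjusted p is below 0.05. All points lie below 0, EGFP between −0.45 and −0.17 and FEN1 between −0.51 and −0.21.

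Both differences were negative under each processing that gave a value. EGFP passed in 10 alternatives and did not in 7, with adjusted p-values of 4.0e-05 to 0.362 (limma), and FEN1 passed in 12 and did not in 6 (2.4e-05 to 0.231). FEN1 was not past the threshold when trends with length and GC content were removed (−0.23, limma-trend adjusted p = 0.0770), and EGFP has no sequence in the sources used here with which to make that correction. FEN1 was not past it without any single library either, at −0.51 to −0.32, in fits that called 0 features or 1 feature in all.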

How the data were processed

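RNA sequencing libraries of HEK293A cells were made with a NEBNext Ultra kit from 1 µg of total RNA, per the labels' protocols. Sample titles gave the groups and the replicate numbers. The authors deposited 1 table per library, whose values were taken as FPKM because, multiplied by summed exon length in GENCODE 29, 100% of values above 0 were whole multiples of 1 step per library within 0.01. The genome build is GRCh38.p12 per the submitters' processing notes. The sources used here do not give the aligner, the counter or the normalization. That step implies a library size of 1.031 and 1.040 times the recovered reads in NT1_hp2 replicates 2 and 3. In NC replicates 1 and 3 it was 0.962 and 1.001 times. This scaling thus lowers NT1_hp2 values relative to NC when set beside shares of reads, so a further scaling is included. EGFP was taken as 720 bases, the shortest length that gave whole reads in all libraries (of lengths up to 2000 bases, 1440 also did). A count of 3 reads on a gene of 1 kilobase amounts to 0.208 to 0.239 FPKM.

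Features that reached 1 FPKM in 2 or more libraries were compared on log2(FPKM + 1), which understates changes of low features, with limma 3.58.1 in R 4.3.3 (intensity trend, robust shrinkage, Benjamini-Hochberg adjustment over all tested features, called below 0.05). The ratio of FEN1 to EGFP was tested by exact permutation. The fit was tested on simulated data with changes larger than those of EGFP and FEN1 and with no length or GC trends. That test does not bear on differences of their size. The members and the gene lists were chosen with earlier results of these data known. Genes were named by rule: the members, called list members, a fixed set of genes for levels beside FEN1, the features ranked around EGFP, and the 4 nearest profiles. POLA1, PARP1, EEF1A1, RPL7A, RPS2, EEF2, MIR611, MIR1908, FEN1P1 and FADS3 were named after their values were seen. Alternatives covered scaling, limma-voom on recovered reads, pseudocount, filters, feature classes, variance shrinkage, length and GC trends (mgcv 1.9.3) and omission of each library. Scaling to recovered read totals and the removal of length trends alone were added after seeing the data.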

Additional observations from a re-analysis of the deposited data

How the results depend on the processing

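No paired analysis was possible because the groups share only replicate number 3. EGFP, which did not pass as reported, passed at −0.17 with summed-FPKM scaling, −0.36 with median-of-ratios factors, −0.31 with upper-quartile factors, −0.34 with reference-gene factors, −0.30 with recovered read totals, −0.38 with limma-voom, with at least 5 FPKM in all libraries, with protein-coding genes alone and with features of at least 300 bases, and −0.38 with length trends removed. It did not pass with a pseudocount of 0.1, without the filter, without robust shrinkage or without any 1 library (−0.45 to −0.32). FEN1 did not pass without the filter (−0.42), with length and GC trends removed (−0.23) or without any 1 library (−0.51 to −0.32). The ratio of FEN1 to EGFP turned from −0.042 to 0.098 with length trends removed, and was −0.073 to −0.011 without 1 library. The cause was not tested.

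The number of features called was 2278 as reported (818 higher, 1460 lower). It was 4214 with summed-FPKM scaling (3299 higher, 915 lower), 5619 with limma-voom, 4717 with protein-coding genes alone (of 12150 tested), 3585 with at least 300 bases, 304 with length and GC trends removed, 0 without the filter (6778 at an unadjusted p under 0.05) and 0 to 1 without 1 library (3315 to 5836 at an unadjusted p under 0.05). The share higher among called features was 35.9% as reported, 78.3% with summed FPKM, 51.0% with upper-quartile factors and 53.9% with read totals.

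Called members of the lagging-strand and repair list, 2 as reported, were 15 with summed FPKM, 7 with upper-quartile factors, 7 with reference-gene factors, 7 with read totals, 15 with limma-voom, 13 with at least 5 FPKM, 15 with protein-coding genes, 7 with at least 300 bases, 0 without the filter, 0 with length and GC trends removed and 0 without any 1 library. Called neighbours of FEN1, 1 as reported (FADS2, lower), were 1 in the other direction with summed FPKM (FADS1, higher), 0 with reference-gene factors, 2 with limma-voom (FADS2 and FADS3, both lower), 0 without the filter, 0 with length and GC trends removed and 0 without any 1 library. Called reference genes, 2 as reported, were 9 with summed FPKM (7 higher, 2 lower), 4 with upper-quartile factors, 4 with reference-gene factors, 5 with limma-voom, 4 with at least 5 FPKM, 4 with protein-coding genes, 1 with length and GC trends removed, 0 without the filter and 0 without any 1 library. Of all tested features, 20.2% were called higher and 5.59% lower with summed FPKM, and 9.07% and 8.73% with upper-quartile factors. Reference-gene factors gave 5.12% and 8.26%, read totals 9.45% and 8.09%, and limma-voom 14.4% and 19.9%. At least 5 FPKM gave 15.7% and 28%, with 27 repair genes, 5 neighbours and 14 reference genes tested. Protein-coding genes alone gave 14.6% and 24.2%, and at least 300 bases 8.83% and 14.6%. Removal of length and GC trends gave 0.752% and 1.11%. With 2 libraries a group, EGFP differed within both groups by more than counting error. FEN1 did so within NC and not within NT1_hp2.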
